A study of Mus musculus with 16 samples.

Results

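PWK islets were compared with islets of 7 other inbred mouse strains by ATAC-seq. The assay inserts sequencing adapters with a transposase, which reaches only accessible DNA, so read depth at a site measures how open it is. The PWK samples were the 2 of 16 samples whose labels gave the strain PWK_PhJ, 1 female and 1 male. The other 14 samples were 1 female and 1 male each of 129S1_SvImJ (129), A_J (AJ), C57BL/6J (B6), CAST_EiJ (CAST), NOD_ShiLtJ (NOD), NZO_HlLtJ (NZO) and WSB_EiJ (WSB). All mice carried their strain's own genome, and the labels gave no treatment, transgene or age. Whole islets were used, so that each value is an average over beta, alpha, delta and other cells, and fewer cells of a type and less accessibility per cell cannot be told apart. A strain had no repeat of the same sex, so the spread behind the tests below is that between sexes within strains, unless stated otherwise, and it may be partly technical.

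PWK is a wild-derived strain of the subspecies Mus musculus musculus, whereas the classical laboratory strains descend mostly from Mus musculus domesticus. It therefore differs from the B6 reference genome at far more positions than the classical strains do, as does CAST, which comes from Mus musculus castaneus. Accessible regions mark promoters and distal enhancers, where sequence-specific factors bind, and variants within them can change how accessible they are. In islets, such regions surround the genes for hormones, glucose sensing and granule release.

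The peak lists of the 16 samples were merged into 347712 regions on chromosomes 1 to 19, of which 40940 had a peak in every sample and are called shared regions here. Summit signal was compared as log2(signal + 1), centred on each sample's median over the shared regions. Scaled signal below is the summit signal divided by that median, so that 1 is the typical shared region of a sample and 0 means that no peak was listed. The lists carry no read totals, and the read depth of single samples was not analysed here. The PWK male list stood apart. Its median summit signal over shared regions was 32, the lowest of all samples, against 62 in the PWK female and 55 to 136 in the other 14. It held 145886 autosomal peaks with a median −log10 p of 1.79, below the 3.10 to 4.27 of the other 14 lists. The female and the male of PWK shared 48.9% of the regions called in either, the lowest share of the 8 strains (next NZO, 50.4%, and highest NOD, 73.1%). The main counts and the calls named below are therefore set beside those without the female or without the male. Promoters of the beta cell genes Ins1, Ins2, Iapp, Pdx1, Nkx6-1 and Mafa and of the alpha cell gene Gcg had a peak in both PWK samples and in all other 14. That of the delta cell gene Sst had a weak one in 1 PWK sample and in 0 of the others. Of the genes of other cell types, the acinar genes Cpa1, Cela1 and Ctrb1, the endothelial gene Pecam1 and the leukocyte genes Cd3e and Spi1 had no promoter peak in PWK. The acinar genes Ptf1a and Prss2, the duct gene Krt19 and the endothelial gene Kdr had one in 1 PWK sample, and the value at Prss2 (scaled signal 0.344) was above all other samples (0 to 0.255). The duct gene Cftr (0.5 and 0.516 in PWK), the endothelial gene Cdh5 (0.306 and 0.5) and the leukocyte gene Ptprc (0.188 and 0.242) had one in both, within the range of the others. The part of other cell types in the results was not tested.

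PWK differed from the mean of the other 7 strains in both directions. Of the 40940 shared regions, 2180 (5.32%) were called higher and 2355 (5.75%) lower (limma with strain and sex, Benjamini-Hochberg adjusted p under 0.05). The median difference was 1.01 on the log2 scale in the regions called higher and -1.01 in those called lower. In 1065 of the former (2.6% of all shared regions) both PWK values also lay above all other 14 samples, and in 1085 of the latter (2.65%) both lay below. Counting without any test, 1376 shared regions (3.36%) had both PWK values above all others and 1293 (3.16%) had both below. The same count was larger both ways in CAST (1936 above and 3530 below) and AJ (1426 and 1430). In WSB it was smaller above (1005) and larger below (1480), and in the remaining strains it was smaller both ways. Without the PWK female the calls numbered 953 higher and 1139 lower, and without the PWK male 986 and 1138. In a further model, with PWK or not in place of strain, the spread between the other strains entered the error. It called 277 regions (0.677%) higher and 464 (1.13%) lower, all of them among the calls above. The samples of a strain counted as independent in it, so its p-values do not take the strain as the unit. This holds wherever that spread is named as error below.

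Set against single strains, PWK was called higher than CAST in 3458 shared regions and lower in 1806. Against WSB the counts were 1850 and 1730, and against B6, the strain of the reference genome, 1614 and 2169. The same contrast made for each strain in turn gave more calls in CAST (2793 higher and 5636 lower) and fewer in the other 6, the most among them in AJ (1503 and 1284). Whether the female-male difference of PWK departed from that of the other strains was also asked. limma called 0 regions, 4427 had an unadjusted p under 0.05, and the smallest adjusted p was 0.246.

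Among regions called lower in or near protein-coding genes, with both PWK values below all others, the largest difference was in Palmd, which encodes palmdelphin. It lay in an intron, at chr3:116949162-116952422. Scaled signal was 0.210 in the PWK female and 0.188 in the PWK male, whereas the other 14 samples ran from 3.47 through a median of 4.45 to 6.12. The log2 difference was -4.35 (SE 0.191, adjusted p = 7.27e-08). PWK was also lower there than CAST (-4.20, adjusted p = 9.05e-07), WSB (-4.42, adjusted p = 9.54e-07) and B6 (-4.58, adjusted p = 9.79e-07) alone. Next by size came an intron of Ccdc178 (-3.86, SE 0.252) and the region over the adjacent starts of S100a3 and S100a4, which encode calcium-binding proteins (-3.29, SE 0.274). At S100a3 and S100a4, PWK had 0.387 and 0.250 and the others 1.07 to 6.16 around a median of 3.53, the lowest being the CAST female. An intron of Crybg1 had 0.242 and 0.156 in PWK and 1.38 to 3.28 elsewhere, with a median of 2.00 (log2 difference -3.18, SE 0.216, adjusted p = 2.08e-06). Lifr, the receptor of leukaemia inhibitory factor, held an exonic region at 0.548 and 0.281 in PWK against 1.65 to 4.63 in the others (-2.96, SE 0.253, adjusted p = 1.35e-05). The remaining 7 of the 12 leading regions lay in Adgrv1, Ubac2, Ttc17, Gpc5, which encodes a glypican, Usp29, a deubiquitinase gene of the imprinted Peg3 cluster, Mapre2, which encodes a microtubule-end protein, and upstream of Atp6v1fnb within Kcp. Their differences ran from -3.02 in Adgrv1 to -2.57 in Mapre2. In Adgrv1 the difference from CAST alone, -1.27, was not past the threshold (adjusted p = 0.101). All 12 calls held without the PWK female, without the PWK male, and with the spread between the other strains as error, where their largest adjusted p was 0.0246.

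The middle 200 bases of a few leading regions are printed from the mm10 reference, to show what kind of sequence carried the differences. Capitals mark matches to any of 14 short motifs of islet and general factors. In the Palmd window the capitals are a GATA motif (AGATAAG) and in the Crybg1 window an AP-1 motif (TGANTCA) and the reverse complement of an RFX motif (GTTGCC). Neither window repeats elsewhere in the reference. These are the letters of B6, not of PWK.
Palmd region, chr3:116950693-116950892, + strand: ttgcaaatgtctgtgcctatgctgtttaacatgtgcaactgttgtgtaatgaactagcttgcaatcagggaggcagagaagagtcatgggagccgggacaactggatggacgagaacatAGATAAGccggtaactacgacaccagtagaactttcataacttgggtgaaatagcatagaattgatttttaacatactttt
Crybg1 region, chr10:44084534-44084733, + strand: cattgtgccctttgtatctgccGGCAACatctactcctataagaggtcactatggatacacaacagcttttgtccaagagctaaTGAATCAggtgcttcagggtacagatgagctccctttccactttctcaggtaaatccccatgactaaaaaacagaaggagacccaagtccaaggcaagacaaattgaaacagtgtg

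Among regions called higher in or near protein-coding genes, with both PWK values above all others, the largest difference lay over the Nadk2 promoter, at chr15:9085000-9085599, 201 bases from its start site. Nadk2 encodes the mitochondrial NAD kinase. Scaled signal was 9.84 in the PWK female and 17.9 in the PWK male, and the other samples ran from 0.103 through a median of 0.374 to 1.63 (log2 difference 4.97, SE 0.281, adjusted p = 5.23e-07). Its middle is a tandem repeat in the reference, in which 85.6% of bases equal the base 19 positions before. The second, an intron of Spata16, a gene of sperm head formation, is single-copy sequence. There PWK had 11.4 and 9.59 and the others 0.179 to 1.40 with a median of 0.383 (4.64, SE 0.235, adjusted p = 1.92e-07). Both windows are printed below, since they stand for the repeated and the unique kind, and neither holds any of the 14 motifs.
Nadk2 region, chr15:9085200-9085399, + strand: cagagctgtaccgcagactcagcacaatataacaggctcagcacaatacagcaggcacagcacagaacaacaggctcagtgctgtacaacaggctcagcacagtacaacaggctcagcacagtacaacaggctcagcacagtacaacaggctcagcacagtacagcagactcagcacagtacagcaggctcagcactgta
Spata16 region, chr3:26969674-26969873, + strand: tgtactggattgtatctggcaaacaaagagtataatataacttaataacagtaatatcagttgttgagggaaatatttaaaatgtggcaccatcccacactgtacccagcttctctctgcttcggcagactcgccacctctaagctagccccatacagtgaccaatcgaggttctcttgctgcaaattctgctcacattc

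Of the 12 leading higher regions, 6 lay in predicted genes of chromosome 14, namely Gm2974, Gm10406, Gm3002, Gm8108, Gm2897 and Gm2237. At Gm10406, PWK had 23.5 and 34.2 and the others 0.419 to 11.4, with a median of 1.37 (log2 difference 4.08, SE 0.214). In each of these 6 regions the highest of the other 14 samples was a 129 female or male. The middles of these 6 regions consisted to 57.1% to 100% of words that occur more than once in the reference, with a median of 6 to 37 copies, so reads there cannot be tied to single genes. At Gm8108 (adjusted p = 0.193) and Gm2237 (adjusted p = 0.146) the call was lost with the spread between the other strains as error, and likewise at Epb41l3 (adjusted p = 0.0620). Unique sequence carried the calls in introns of Epb41l3, which encodes a membrane skeleton protein, and Sh2d4b, and in an exon of Dpyd, which encodes the enzyme that breaks down pyrimidines. Dpyd had 2.903 and 1.94 in PWK against 0.136 to 0.717 elsewhere (2.97, SE 0.291, adjusted p = 3.69e-05). Epb41l3 had 3.15 and 2.97 against 0.0964 to 1.97 (3.01, SE 0.278, adjusted p = 2.24e-05). An intron of Atrnl1 completed the list (2.80, SE 0.326), and there the PWK male, at 6.19, was well above the female, at 1.66.

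**Figure D1:**
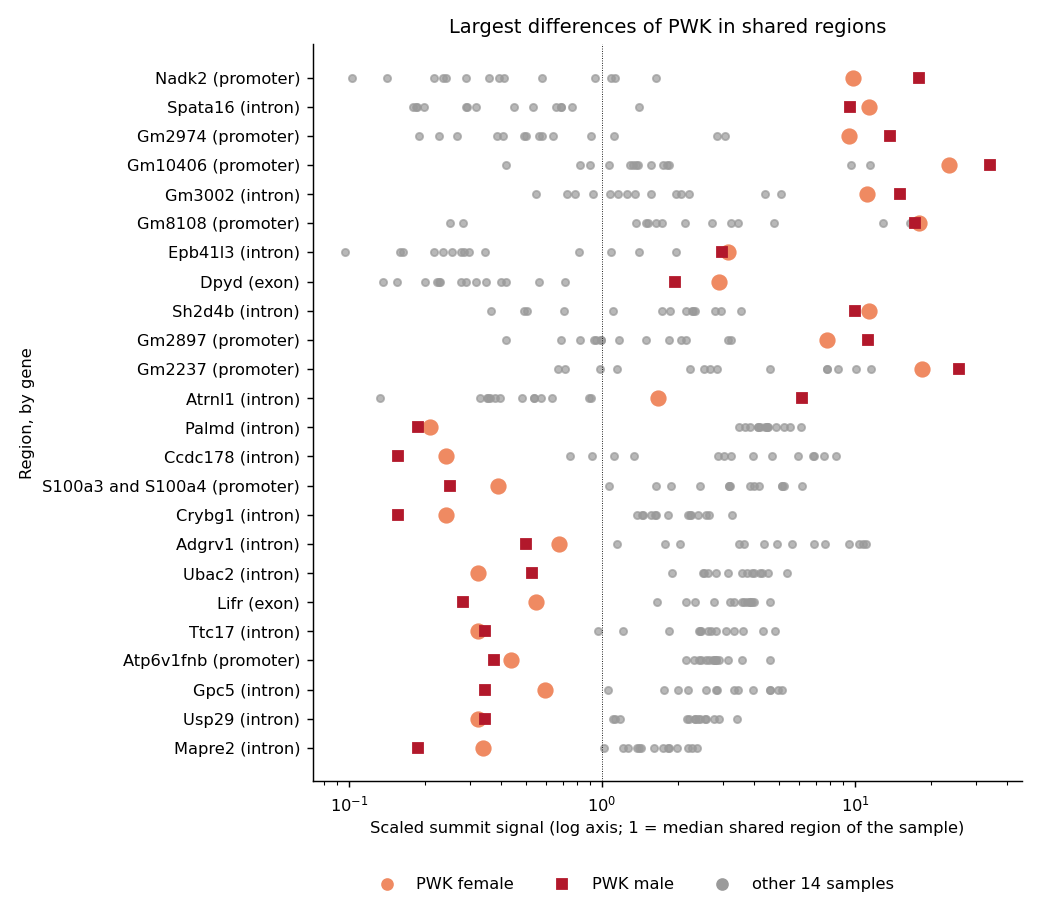
Scaled summit signal (log axis) of the 12 leading regions called higher and the 12 called lower in PWK, by sample. Only regions with the PWK female (orange circle) and the PWK male (red square) outside the range of the other 14 samples (grey) were taken. The PWK values were 9.84 and 17.9 at Nadk2 and 0.210 and 0.188 at Palmd.

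To see whether repeated sequence was common among the calls, the middle 200 bases of each region were split into words of 24 bases, and a region was called repeated when at least 50% of its words occurred more than once in the reference. Among all shared regions 3.29% were repeated. Of the regions called higher 14.04% were (306 regions), and of those called lower 3.91% (92). A tandem repeat of 10 to 60 bases, with at least 80% identity between neighbours, filled the middle of 19 regions called higher (0.872%) and of 78 of all shared regions (0.191%). Of the 7 shared regions that matched the mitochondrial genome over at least 50% of their words, 6 were called higher. With repeated regions left out, 1796 regions were called higher and 2181 lower. Promoters, within 3 kb of a start site, made up 41.0% of shared regions but 29.9% of those called higher and 29.4% of those called lower. Introns made up 27.1% of shared regions, 32.8% of those higher and 31.9% of those lower.

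**Figure D2:**
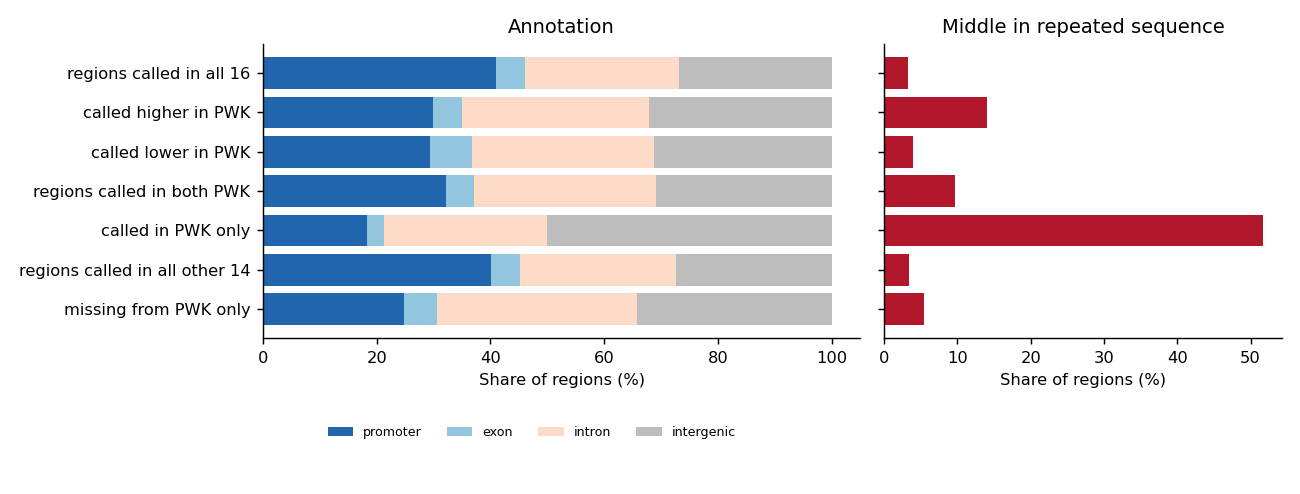
Left, share of regions (%) at promoters, exons, introns and between genes for each set of regions; right, share (%) whose middle 200 bases are repeated in the reference. Repeated sequence made up 14.04% of the regions called higher and 51.8% of those called in PWK only, against 3.29% of shared regions and 9.70% of those called in both PWK samples.

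The genome was also split into windows of 500 kb, of which 3491 held at least 4 shared regions. In 39 of them at least 50% of the regions were called higher, and in 35 at least 50% were called lower. The run of such windows with the most shared regions was on chromosome 8 between 19679468 and 20833446, between clusters of defensin genes, where 78 of 104 shared regions were called higher and 98.1% were repeated. The median difference there was 1.21 on the log2 scale, 0.975 in the PWK female and 1.45 in the PWK male, and the other samples spread from -2.01 to 1.18. On chromosome 14, 10 of 10 shared regions between 4017243 and 4871973 and 15 of 17 between 6035501 and 7490999 were called higher, with median differences of 2.03 and 1.88. Of the protein-coding genes there, 19 of 20 and 33 of 33 are predicted genes with Gm names. The distal end of chromosome 2, between 176706000 and 178472814, had 20 of 27 called higher (median 1.03) and holds the zinc finger genes Zfp931 and Zfp970 to Zfp973. The Speer4 genes on chromosome 5, between 15002377 and 15993849, had 14 of 23 (median 1.41). There the highest other sample, at 1.104, was above the PWK female (0.9986) and below the PWK male (1.502). The PWK medians of both sexes were above 0 in each of these runs. On chromosome 2 the highest other sample, at 1.69, was above both PWK samples (1.04 and 0.94), and in the chromosome 14 runs the highest others, at 1.31 and 1.71, were below both.

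Of the 35 windows rich in lower calls, 29 were on chromosome 11, and the 6 elsewhere held 4 or 5 shared regions each. Of the 1146 shared regions on chromosome 11, 318 (27.7%) were called lower and 7 (0.611%) higher, against 5.12% lower and 5.46% higher on the other chromosomes. Of the 318 called lower, 301 lay in the first 50 Mb, a boundary set after the values were seen. That stretch held 646 shared regions, of which 612 (94.7%) had a difference below 0, and in 208 of the 301 both PWK values were below all other samples. The median difference was -0.70 on the log2 scale, or 0.617 times. It was -0.69 in the PWK female and -0.67 in the PWK male, whereas the medians of the other 14 samples, each taken against the other strains in the same way, lay between 0.05 (CAST female) and 0.20 (129 male). The shift was as large at promoters (-0.67, 261 regions) as in introns (-0.70, 161) and between genes (-0.75, 193), and it was -0.78 in the 162 GC-poorest regions and -0.64 in the 162 GC-richest.

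Beyond 50 Mb, 17 of 500 shared regions (3.4%) were called lower, though 414 (82.8%) had a difference below 0 and the median difference was -0.27. The PWK medians there, -0.19 and -0.38, lay inside the range of the other samples, from -0.70 in the AJ female to 1.31 in the NZO male. Chromosome 11 had few shared regions in the whole series, with 37.8 shared promoter regions per 100 protein-coding genes against 65.7 to 111 on the others, and the share of called regions that lay on it was 2.69% in the PWK female and 1.59% in the PWK male against 2.52% to 4.75% elsewhere. The part of this in the decrease was not tested. Across the settings tried on the same regions, the median of the first 50 Mb stayed between -0.51 (deposited mean signal) and -0.72 (centring within GC bins), apart from -1.52 with no centring and -0.23 with centring within each chromosome. Medians of the other chromosomes lay between -0.15 on chromosome 19 and 0.22 on chromosome 18, where other strains also departed from 0 (from -0.85 to 0.40 and from -0.40 to 0.34).

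**Figure D3:**
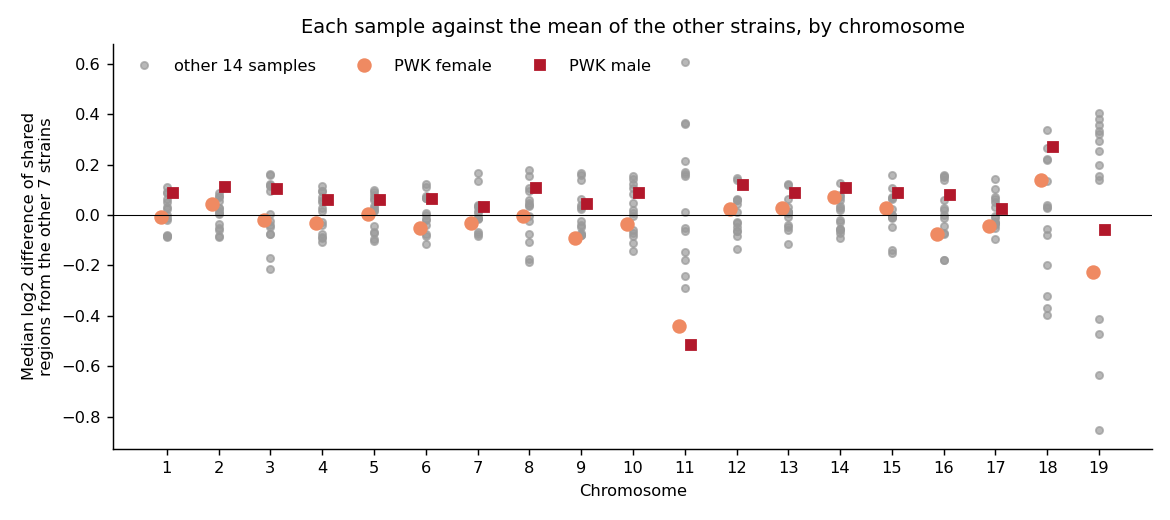
Median log2 difference of the shared regions of each chromosome from the mean of the other 7 strains, for each sample (PWK female orange circles, PWK male red squares, other 14 samples grey). On chromosome 11 the PWK samples, at -0.44 and -0.52, lie below all others, and on the remaining chromosomes they lie among or close to them.

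The first 50 Mb of chromosome 11 hold genes that matter in islets. Of the regions of Grb10, an imprinted gene whose product restrains insulin signalling, 3 were called lower, the largest difference being in an intronic region at chr11:11974491-11975498. It had 0.597 and 0.875 in PWK against 1.33 to 3.11 (-1.38, SE 0.211, adjusted p = 0.000991), so that the groups did not overlap, and its size stands beside a median of -0.70 over all shared regions of that stretch.

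Islet genes were examined through 16 gene lists. As a base, 4.94% of the 29934 shared regions within 3 kb of a start site or in a gene were called higher and 5.41% lower, with a median difference of 0.03. Over all lists 56 regions were called, of which 17 were still called without the PWK female, 16 without the PWK male and 10 in both cases, and 8 with the spread between the other strains as error. The 10 lay at Abcc8, Cpe, Ptprn2 (2 regions), Pam, Jazf1, Grb10, Nr1d2, Gbp3 and Ttr, and every other list call was lost without at least 1 of the PWK samples. Of the 35 regions at beta cell hormones and identity factors, 1 was called higher (median 0.01). It was 1955 bases from a start site of G6pc2, which encodes the glucose-6-phosphatase of islets, with 2.24 and 2.84 in PWK against 0.636 to 1.96 (0.82, SE 0.217, adjusted p = 0.0262). This call was lost without the PWK female (adjusted p = 0.0589), without the PWK male (adjusted p = 0.298) and with the spread between the other strains as error (adjusted p = 0.217). Regions of Ins1, Ins2, Iapp, Pdx1, Nkx6-1 and Mafa gave no call in either direction. At the Pdx1 promoter region chr5:147269763-147271379, PWK had 0.726 in the female and 2.28 in the male, and the others 1.12 to 2.36 (-0.31, adjusted p = 0.603). At a second Pdx1 promoter region, chr5:147267317-147269086, both PWK values (0.919 and 0.906) lay below all others (1.23 to 1.87), and the difference was just short of the threshold (-0.62, adjusted p = 0.0515).

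Of 85 regions at genes of insulin granule release and ion channels, 5 were called higher and 4 lower (median -0.02). The most significant was an intron of Abcc8, chr7:46145216-46147875, 7248 bases from a start site. Abcc8 encodes the sulfonylurea receptor, a subunit of the ATP-sensitive potassium channel that couples glucose to insulin release. PWK had 1.07 and 1.41 there, below all other samples, which ran from 2.31 in the AJ male to 4.94 in the CAST female with a median of 3.03 (log2 difference -1.39, SE 0.195, adjusted p = 0.000567). It was lower than CAST (-1.97, adjusted p = 0.000335), WSB (-1.31, adjusted p = 0.00640) and B6 (-1.27, adjusted p = 0.00793) alone, and stayed past the threshold without either PWK sample. Over the Abcc8 promoter, in a region of 25620 bases that also spans Kcnj11, the gene for the other subunit, PWK had 2.29 and 1.53 within the 0.982 to 2.76 of the others (0.34, adjusted p = 0.430). At the promoter of the neighbouring Nomo1 it had 1.45 and 2.22, also within their range (0.27, adjusted p = 0.436). At Adcy5 a promoter peak was listed in both PWK samples and in 5 of the other 14, and at the Kcnq1 promoter in neither PWK sample and in 5 of the others. Calcium channel genes went both ways, with regions of Cacna1c and Cacna1e called higher and an intron of Cacna1d lower (-1.58, SE 0.269, adjusted p = 0.00215). The last was lost without the PWK male alone (adjusted p = 0.0677), and the Cacna1c call likewise (adjusted p = 0.196).

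Genes of prohormone processing and granule proteins had 8 of 104 regions called higher (7.69%) and 8 lower (7.69%; median 0.05). An exonic region of Cpe, the carboxypeptidase that trims proinsulin, had 2.66 and 2.28 in PWK and 0.382 to 2.47 in the others, with a median of 0.546 (1.89, SE 0.192, adjusted p = 5e-05). CAST was as high there, with the CAST male the highest of the other samples. PWK did not differ from CAST past the threshold (0.10, adjusted p = 0.835) but did from WSB (1.71, adjusted p = 0.000999) and B6 (2.04, adjusted p = 0.000343). The Cpe call was lost with the spread between the other strains as error (adjusted p = 0.0870). At Chga, for chromogranin A, a wide region classed as promoter, chr12:102557232-102582479, had 0.645 and 1.09 against 1.21 to 3.48 (-1.15, SE 0.220, adjusted p = 0.00456). Its value is the highest summit anywhere in that region, which need not lie at the promoter. Scg3, for a granin of the same granules, had 2.61 and 1.75 against 2.84 to 6.96 (-1.09, SE 0.248, adjusted p = 0.0123). Chga lost its call without the PWK female (adjusted p = 0.138) and Scg3 without the PWK male (adjusted p = 0.227). Ptprn2, for a membrane protein of dense-core vesicles, held 4 regions called higher and 3 lower across its introns and exons, from 1.59 to -1.82. At the lowest PWK had 0.161 and 0.406 against 0.554 to 1.42.

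Among type 2 diabetes genes from human association studies, 2 of 104 regions were called higher (1.92%) and 12 lower (11.5%), with a median of 0.00; 6 of the 12 lay on chromosome 11, 3 of them at Grb10. The promoter of Jazf1 had 0.323 and 0.375 in PWK against 0.628 to 1.16 (-1.28, SE 0.173, adjusted p = 0.000443). Of 31 regions at circadian clock genes, 0 were called higher and 2 lower. In a region of 10174 bases at Nr1d2, which encodes the repressor REV-ERB beta, PWK had 0.403 and 0.344 against 0.586 to 4.00 with a median of 2.73 (-2.29, SE 0.235, adjusted p = 5.42e-05), and the difference from CAST alone was not past the threshold (-0.83, adjusted p = 0.0981). The 129 samples were low there too (0.586 and 0.768), the call was lost with the spread between the other strains as error (adjusted p = 0.0900), and 70.6% of the words in its middle occur more than once in the reference, with a median of 5 copies. Of 27 regions at interferon and cytokine response genes, 1 was called higher, at the promoter of the interferon-induced GTPase gene Gbp3. PWK had 6.10 and 7.19 there against 0.988 to 4.59 (1.60, SE 0.219, adjusted p = 0.000477). The CAST samples came next, at 3.90 and 4.59, and the difference from CAST alone was not past the threshold (0.63, adjusted p = 0.181). The Gbp3 call was lost with the spread between the other strains as error (adjusted p = 0.089). The promoters of Ifih1, a sensor of viral RNA, and Nfkbia, an inhibitor of NF-κB, were called lower.

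Other lists gave few calls, of which that at Ttr alone held without either PWK sample. Alpha, delta and PP cell genes had 2 of 6 regions called higher, over Ttr (1.55, SE 0.212, adjusted p = 0.000477) and at Rbp4. At Hhex, a delta cell factor, 1 was called lower, with 0.1935 and 0.0938 in PWK but also 0.0988 and 0.0909 in NZO. The Hhex call was lost with the spread between the other strains as error (adjusted p = 0.537). Over Ttr, PWK had 2.855 and 4.03 and CAST 2.34 and 2.51. The difference from CAST alone was not past the threshold (0.47, adjusted p = 0.305). The Ttr call was lost with the spread between the other strains as error (adjusted p = 0.059) and with the deposited mean signal (0.45, adjusted p = 0.147). Islet developmental factors had 1 of 29 higher, at Rfx6, and 2 lower, at Rfx3 and Glis3. The Rfx6 call rested on the female, with 1.19 against 0.438 in the male, and without her it was not past the threshold (adjusted p = 0.686). Without the male, Glis3 (adjusted p = 0.403) and Hhex (adjusted p = 0.312) were not. Unfolded protein response genes had 1 of 31 higher and 1 lower, at Atf6 and Edem1. Antioxidant genes had 1 of 31 higher, at Gclc, and 2 lower, at Gclm and Nqo1, and immediate early genes 0 of 19 higher and 1 lower, at Nr4a2. Of the lists for other cell types, 10 duct and 7 leukocyte regions gave 0 calls, 2 of 6 acinar regions were called lower, both at Nr5a2, and 1 of 12 endothelial and stromal regions was called lower, at the collagen gene Col1a2 (adjusted p = 0.240 without the PWK male).

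**Figure D4:**
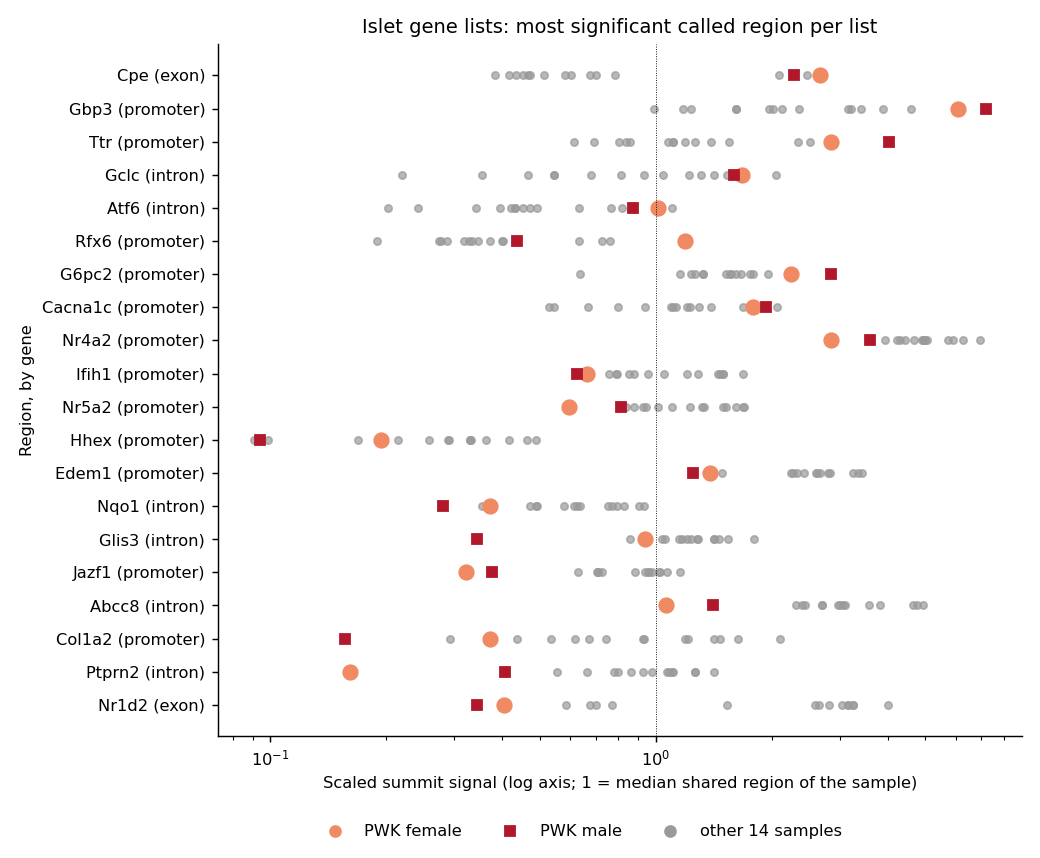
Scaled summit signal (log axis) of the most significant called region in each direction of each gene list, apart from the lower one of the beta cell list, by sample (PWK female orange circles, PWK male red squares, other 14 samples grey). PWK lies below all others at Abcc8 and Jazf1 and above all others at Gbp3 and G6pc2, and at Cpe 1 grey point, the CAST male, lies between the PWK values.

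The second comparison asked which regions were called in PWK alone. Of the 81455 regions called in both PWK samples, 3385 (4.16%) had no peak in any other sample, and 52882 (64.9%) had a peak in all of the other 7 strains. Of the 43008 regions called in all other 14 samples, 787 (1.83%) had a peak in neither PWK sample. These were the most regions missing from a single strain, followed by AJ (630) and CAST (491), with 64 to 183 in the others. CAST (6249) and WSB (3524) had more regions of their own than PWK, and NZO (1121) followed. With 60000 peaks taken from each sample, PWK had 1752 regions of its own, after CAST (2107) and before WSB (674), and 563 missing, after CAST (625). In the strain lists at an IDR (irreproducible discovery rate) of 0.05, NZO (3082) and AJ (1854) had more missing than PWK (853). With 1 strain against 7, no test over strains can pass 0.05 (the smallest one-sided p is 0.125), so these counts are a description.

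**Figure D5:**
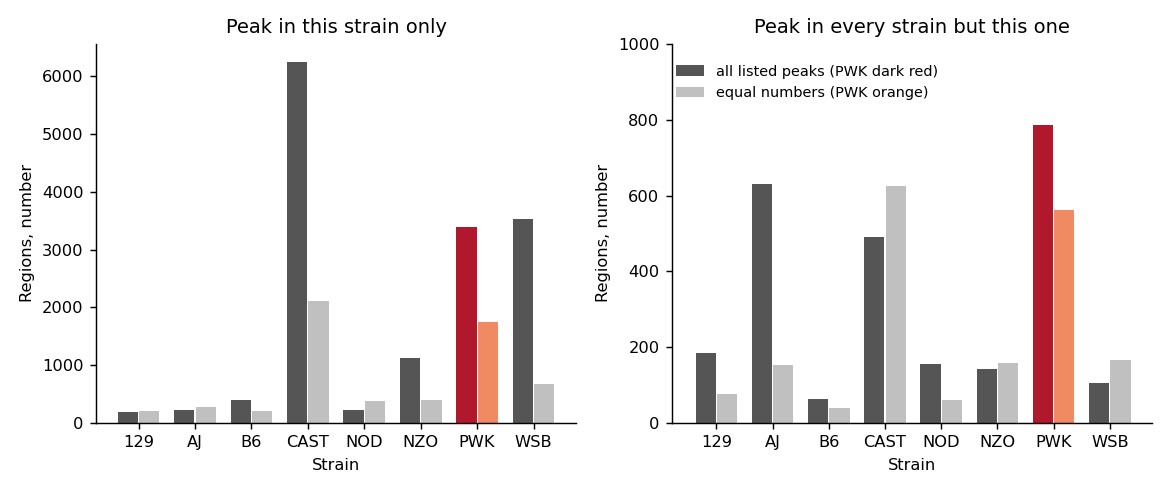
Number of regions with a peak in both samples of 1 strain only (left) and in all 14 other samples but neither of that strain (right), with all listed peaks (dark grey, PWK dark red) and with 60000 peaks per sample (light grey, PWK orange). PWK had 3385 regions of its own and 787 missing with all peaks, and 1752 and 563 with equal numbers.

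Regions called in PWK alone were mostly weak, and many were repeated. The lower of their 2 PWK values had a median of 0.194 of the typical shared region, and in 37 of 3385 (1.09%) it reached 1. At least 50% of the words of the middle sequence were repeated in 1752 regions (51.8%), against 9.70% of regions called in both PWK samples. In the other strains the same share among their own regions ran from 10.4% in WSB and 26.3% in CAST to 48.3% in 129. Between genes lay 50.0% of them, and 18.4% lay at promoters. Leaving out repeated regions left 1633.

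They also lay close together. Windows of 500 kb with at least 10 such regions numbered 34 and held 672 of them. The densest was the start of chromosome 13, between 3000200 and 3391399, with 75 regions, of which 77.3% were repeated. It was followed by the Obox homeobox genes on chromosome 7, between 15517341 and 15799452, with 34 regions, and by windows of predicted genes on chromosomes 14 (31 and 27 regions) and 2 (30 and 30 regions), where 100% were repeated. By chromosome, 14 had the most (409) and 11 the fewest (40). The 787 missing regions showed no such clusters, with at most 5 in a window, and 43 (5.46%) were repeated. Of them 60 lay on chromosome 11, or 4.52% of the regions called there in all other 14 samples, the highest share of any chromosome.

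Of the regions called in PWK alone, the strongest by the lower PWK value lay in an intron of Nup107, a nuclear pore gene, at chr10:117768797-117769641, with scaled signals of 32.9 and 48.6. Its middle is a tandem array in which 74.6% of bases equal the base 31 positions before, and all of its words are repeated in the reference. Next came a peak of 100 bases at the start of Gm12155 (30.0 and 57.6), a peak of 125 bases near AC127229.1 (13.0 and 22.8), and a peak of 147 bases in an exon of Agfg1 (12.0 and 10.4). The fifth was unique sequence, an intron of Ttc29 at chr8:78321535-78322746, with 7.63 in both sexes. The other 5 of the 10 strongest ran down to an intron of Mrc1, the mannose receptor gene of macrophages (2.58 and 4.56). The Nup107 window shows the array.
Nup107 region, chr10:117769120-117769319, + strand: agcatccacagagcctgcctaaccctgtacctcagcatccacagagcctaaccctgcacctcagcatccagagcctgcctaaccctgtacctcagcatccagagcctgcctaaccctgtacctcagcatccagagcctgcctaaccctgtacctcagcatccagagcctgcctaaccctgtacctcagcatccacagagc

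Of the regions missing from PWK, 93 of 787 (11.8%) were at or above the typical shared region in the median of the other 14 samples. The strongest lay between genes, 39494 bases from the start of Birc3, an inhibitor of apoptosis, at chr9:7912680-7915578. No peak was listed in PWK, and the others ran from 1.29 in the CAST female to 6.56 in the NOD male with a median of 4.61. An intron of Farp1, which encodes a guanine nucleotide exchange factor, at chr14:121190021-121192258, had 3.13 to 5.71 with a median of 4.08. Its window holds none of the 14 motifs. Promoters or gene starts among the 10 strongest were those of Zfp28 (median 2.79, from 0.330), Cfi, for complement factor I (2.33, from 0.170), the immunoglobulin genes Igkv3-12-1 and Ighv11-1, and Gm4262 within Litaf (2.38, from 1.69). In 4 of these, both samples of 1 other strain were the lowest. They were WSB at Zfp28 (0.434 and 0.330) and CAST at Cfi (0.170 and 0.346) and Igkv3-12-1 (0.264 and 0.294). At Ighv11-1 they were NZO (0.420 and 0.109). A region 4720 bases from the start of Oxtr, the oxytocin receptor gene, had 1.09 to 2.92. Absence from a list shows only that the authors' threshold was not passed, and such DNA may still be open.
Farp1 region, chr14:121191040-121191239, + strand: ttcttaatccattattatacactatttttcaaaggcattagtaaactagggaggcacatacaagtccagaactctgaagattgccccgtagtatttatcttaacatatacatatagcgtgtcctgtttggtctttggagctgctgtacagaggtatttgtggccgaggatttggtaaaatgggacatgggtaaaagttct

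The motifs showed small differences between the sets, given as a description for a few of the 14. The AP-1 motif (TGANTCA) was found in the middle 200 bases of 11.5% of regions called higher, 8.24% of those called lower and 8.35% of all shared regions, on either strand. Among regions called in PWK only it was less common, in 10.04% against 12.1% of those called in both PWK samples. The forkhead motif (TGTTTAC) was in 3.99%, 6.20% and 4.61%. The CTCF core (AGGGGGC) was in 3.62% and 3.95% of the regions called higher and lower, against 5.23% of shared regions, and in 1.36% of those called in PWK only against 4.20% of those called in both PWK samples. The ETS motif (CCGGAAG), common at promoters, was in 0.532% of regions called in PWK only against 1.89%. The YY1 motif (AAGATGG) was in 5.29% against 3.74%. The NKX motif (CACTTGA) was in 4.32% of regions missing from PWK against 2.88% of those called in all other 14.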

How the data were processed

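ATAC-seq was analysed for 16 islet samples of 8 strains, grouped by the strain and sex in the labels. Per the study's methods, the authors trimmed reads with cutadapt 2.0, aligned pairs to mm10, the B6 reference, with Bowtie2 2.3.4.1, removed unmapped and mitochondrial reads with SAMtools and duplicates with Picard 2.9.2, and called peaks in each sample with MOSAiCS (false discovery rate 0.05). No correction of read ends for the transposase is stated, and summit positions could move by a few bases. The authors also aligned reads to individualized genomes, which were not used here. The deposited summit signal is a whole number not scaled to depth, and the deposited mean signal served as an alternative. The deposited significance is a −log10 p-value, used to take equal numbers of peaks, and the strain lists hold a deposited −log10 IDR (irreproducible discovery rate).

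Overlapping or touching peaks on chromosomes 1 to 19 were merged, and the highest summit within a region was used. limma 3.58.1 (R 4.3.3) fitted strain and sex to log2(signal + 1) over 40940 shared regions, with 7 residual degrees of freedom before moderation. It was tested on simulated data in which the other strains did not differ, so that test does not cover differences between them. The assembly is GRCm38, equal to mm10, with GENCODE M21 genes, and sequence came from RefSeq's GRCm38 build. Named regions were the 12 with the largest difference in each direction at protein-coding genes with both PWK values outside the range of the others, the 10 strongest called in PWK only and missing from PWK, the most significant call per gene list and direction, and regions of genes the study names. Any other region in the text was picked with its values in view. The comparison, the gene lists and the motifs were chosen with earlier results of these data known. List members on chromosome X were outside the regions compared, and results of a few genes are not reported here. Read depth of single samples was not analysed here, so no interval that needs it is given. Reads of a strain that differs from the reference in sequence or copy number may align differently, and the part of this in the results was not tested.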

Additional observations from a re-analysis of the deposited data

Results flagged for a closer look

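In 2 sets of 8 samples, the females and the males, Dixon's ratio was computed for each measure of a sample, and 3 values stood apart. Chance alone sets about 1 in 20 such groups apart, and 18 were examined. The median log2 difference over the first 50 Mb of chromosome 11 was -0.69 in the PWK female and -0.67 in the PWK male, each far below the other samples of its sex. Both the stretch and its boundary were chosen after the PWK values were seen, so the chance rate above does not apply to this measure. That it set PWK apart is no separate support for the decrease. The median −log10 p of the PWK male list was 1.79, below all other males.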

How the results depend on the processing

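With 2180 regions called higher and 2355 lower as the values reported, no centring gave 238 and 22481 and moved the median of all shared regions to -0.80 on the log2 scale, so directions are relative to the centring. Adding the spread between the other strains to the error, with the samples of a strain counted as independent, gave 277 and 464. Array weights gave 804 and 1007, and equal numbers of peaks 1178 and 1394. Regions called in at least 12 samples gave 4351 lower. Leaving out single samples gave 953 to 3270 higher and 1138 to 3454 lower, the fewest without a PWK sample and the most without an NZO sample (3270 higher and 3213 lower without the NZO female, 3158 and 3454 without the NZO male). Without chromosome 11, an alternative chosen after seeing the data like that of repeated sequence and that of centring within each chromosome, 2125 were called higher and 1993 lower. Centring within each chromosome gave 1925 and 2207.

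Of the regions called in PWK only, equal numbers left 1752, strain lists at an IDR of 0.05 left 1681, and leaving out repeated sequence left 1633. Leaving out single samples gave 3406 to 41444, with 41444 without the PWK female and 11501 without the PWK male, since a single list then decides. Of the regions missing from PWK only, peaks that cover at least 0.5 of the region left 302, leaving out CAST gave 1221, and leaving out single samples gave 790 to 1724, with 1724 without the PWK female.

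The 45 named regions past the threshold were tried in 33 settings, and in 1381 of 1485 cases they kept direction and call, in all others but 3 they kept direction alone. Most settings left out other strains, and of the 45 calls 21 were lost with the spread between the other strains as error, 13 with array weights, 10 without the PWK female and 13 without the PWK male. The 3 that turned were G6pc2 (-0.0021) and Cacna1c (-0.0073) with no centring and Rfx6 (-0.096) with the deposited mean signal. Of named regions not past the threshold, no centring turned the Abcc8 promoter (-0.49) and Nomo1 (-0.55), leaving out single samples gave -0.0028 to 0.55 at Nomo1, -2.53 to 0.78 at Kcnq1 and -1.13 to 0.52 at the Pdx1 promoter, where each end came without a PWK sample, and the deposited mean signal turned the second Pdx1 region (0.32). Where no reason is given, the cause was not tested. No paired analysis was possible because the labels carry no replicate numbers, and sex was a term of the model.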

Other observations

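Sharing of PWK regions with single other strains was uneven. Of the regions called in both PWK samples, 3336 had a peak in just 1 other strain, and that strain was CAST in 1609, WSB in 751, 129 and NZO in 302 each, B6 in 171, AJ in 102 and NOD in 99. With both samples of the other strain required, 1024 were shared with CAST alone, 287 with WSB alone and 104 with 129 alone. CAST and WSB also had the longest lists of regions, with 109086 and 111905 called in both sexes against 60661 to 81455 in the rest.

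Of regions called in 1 PWK sample but not the other, 54300 were called in the male alone and 30966 in the female alone.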
